A study of Mus musculus with 6 samples.

Results

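Bulge SCs of P21 mice were profiled for 10 genes of the fibroblast growth factor (Fgf) pathway, 7 ligands (Fgf18, Fgf1, Fgf2, Fgf5, Fgf7, Fgf10 and Fgf22) and 3 receptors (Fgfr1, Fgfr2 and Fgfr3). The genes were found by their mouse symbols among the 43274 rows of the normalised count table, and all 10 have a row. They were chosen by a readout, since Fgf18 was selected on the fall of its count between the genotypes in these same libraries, so the genotype differences of all 10 are described here without a test. Bulge SCs are the stem cells held in the bulge of the hair follicle (HF). RNA was sequenced from cells sorted for CD34 and high α6 integrin, in 3 control and 3 ILK-K5 libraries. Both groups were 21-day-old mice of mixed C57Bl6-129/Sv background carrying Cre under the keratin-5 promoter, which acts in basal keratinocytes and not in bulge SCs alone. Controls were heterozygous for a floxed Ilk allele and are labelled ILK +/-, and ILK-K5 mice had both alleles floxed and are labelled ILK -/-. According to the authors, control HFs were resting at this age. Most ILK-K5 HFs were thick and elongated and did not properly enter the resting phase. Genotype and hair cycle stage therefore cannot be told apart in these libraries. The paper states that controls were littermates, and whether libraries of equal replicate number share a litter is not given. Whether a library holds 1 mouse or several is not given in the sources used here, so the errors and p-values measure the spread between these libraries, which may be in part technical.

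Fgf ligands are secreted proteins that bind receptor tyrosine kinases, with heparan sulfate as a co-factor, and switch on the Ras and ERK cascade inside the receiving cell. ERK signalling in turn induces ETS-family transcription factors and feedback inhibitors of the Sprouty and Dusp families. In the HF, Fgf18 made by the bulge holds stem cells in the resting phase, Fgf7 and Fgf10 from the dermal papilla favour their activation, and Fgf5 ends the growth phase.

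Fgf18 (ENSMUSG00000057967) lies on the minus strand of GRCm38 at chr11:33117430-33147400 and shares none of its exon bases with another annotated gene. Fgf5 (ENSMUSG00000029337), on the plus strand at chr5:98254184-98277030, is likewise free of overlap. The 250 bases before the annotated start of each are shown because Fgf18 had the largest difference of the 7 genes fitted, and Fgf5 is another ligand of the HF cycle that was well above the detection limit. They are RefSeq promoter sequences (GRCm38.p6), written 5′ to 3′ on the strand of the gene at chr11:33147401-33147650 and chr5:98253934-98254183, with the GC box in capitals (GGGCGG, or CCGCCC where it is read on the other strand).
Fgf18: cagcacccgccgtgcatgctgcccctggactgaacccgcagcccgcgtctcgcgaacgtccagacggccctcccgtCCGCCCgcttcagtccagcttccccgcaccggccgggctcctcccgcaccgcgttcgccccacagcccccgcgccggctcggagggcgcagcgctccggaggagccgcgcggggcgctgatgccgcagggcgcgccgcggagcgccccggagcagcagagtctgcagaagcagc
Fgf5: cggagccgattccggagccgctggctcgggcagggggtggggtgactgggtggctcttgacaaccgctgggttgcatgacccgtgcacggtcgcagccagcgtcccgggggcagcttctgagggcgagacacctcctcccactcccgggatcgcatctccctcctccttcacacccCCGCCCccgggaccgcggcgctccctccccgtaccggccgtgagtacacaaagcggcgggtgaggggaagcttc
The Fgf18 window was 77.2% G and C with 37 CpG dinucleotides, and the Fgf5 window 70.8% with 24. Over 32851 RefSeq promoters the medians of windows of this length were 52.4% and 6, which placed Fgf18 at percentile 97.4 of G and C content. Each window held 1 GC box, 174 bases before the start in Fgf18 and 74 bases in Fgf5, and 32.7% of all promoters held at least 1. Other motifs searched on both strands had no match in either window. These were the TATA box (TATAAA, in 12.4% of all promoters), the AP-1 site (TGANTCA, in 6.75%), the ETS site (CCGGAAG, in 6.91%) and the TCF site (CTTTGAA, in 4.46%). Promoter entries were found for 8 of the 10 genes.

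Fgf18 was read in all control libraries and was at or near 0 in ILK-K5 SCs. Controls 1, 2 and 3 held 94, 39 and 362 reads of the gene, and the ILK-K5 libraries held 0, 5 and 3. As normalised counts, in which the reads of a library are divided by its size factor, these are 90.7, 59.3 and 263 in the controls and 0, 3.86 and 2.92 in ILK-K5. Each ILK-K5 library lay far below each control library, although the controls themselves spanned 4.43-fold and the highest was control 3. The mean was 138 ± 109 (SD, n = 3) in controls and 2.26 ± 2.01 in ILK-K5 SCs, a ratio of 60.9. The log2 fold change was -5.41 (SE 0.83) in the limma fit on log2 of the normalised count plus 1. With 0 to 5 reads in an ILK-K5 library, the size of this value depends on the constant added before taking logs, and it was -6.73 with 0.1 and -4.07 with 5. Without control 3 the log2 fold change was -4.80. In bulk samples, fewer cells of a type and less RNA per cell cannot be told apart.

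**Figure D1:**
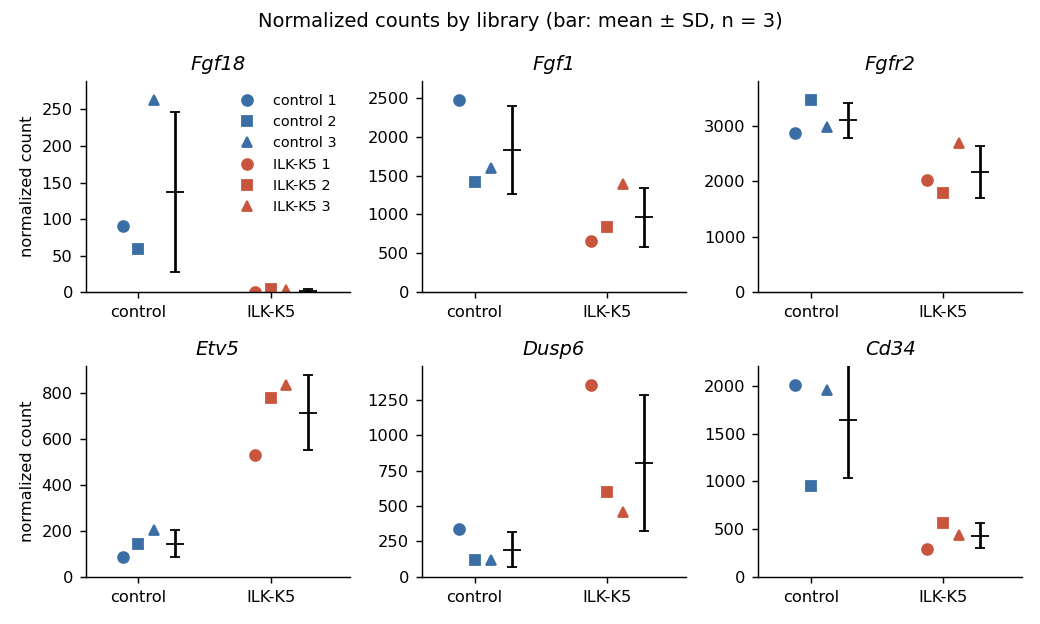
Normalised counts of Fgf18, Fgf1, Fgfr2, Etv5, Dusp6 and Cd34 in each of the 6 libraries (points, y axis from 0), with the mean and SD of the 3 libraries of a group (bars). Groups are apart in all 6 panels, with Fgf18, Fgf1, Fgfr2 and Cd34 lower and Etv5 and Dusp6 higher in ILK-K5. The panels are a selection, and Fgf5, Fgf10, Fgfr1 and Fgfr3, whose groups overlapped, are not shown. Of all fitted genes, 10.9% had every ILK-K5 library above the controls and 6.95% had every one below. The controls of Fgf18 are spread from 59.3 to 263.

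Among the 10 genes, 7 reached the mean of 10 normalised counts required for the fit, and Fgf2, Fgf7 and Fgf22 did not. As a description of the selection and not as a test, Fgf18 was the 1 member past limma's adjusted p threshold of 0.05, on the lower side, where 0.599% of the 16368 genes fitted lay. Fgf18, Fgf1 and Fgfr2 had all ILK-K5 libraries below all control libraries, which was so for 6.95% of the genes fitted, and no member had all ILK-K5 libraries above. Since the genes were picked with this contrast in view, nothing is read from these shares.

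Fgf1, a ligand that binds every Fgf receptor, was the most abundant ligand. It lies on the minus strand at chr18:38838673-38929472. Its normalised counts were 2468, 1413 and 1593 in the controls and 655, 838 and 1390.0 in ILK-K5. The highest ILK-K5 library lay only just below the lowest control. The mean was 1.90-fold lower in ILK-K5, and the log2 fold change was -0.95 (SE 0.35). With replicates 2 and 3 alone it was -0.48.

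Fgf5 counts overlapped between the genotypes. The normalised counts were 208, 147 and 68.2 in the controls and 154, 28.5 and 38.0 in ILK-K5, so that ILK-K5 library 1 exceeded 2 of the controls. The log2 fold change was -1.20 (SE 0.67), and it lay between -1.93 and -0.73 when 1 library was left out.

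The ligands of the dermal papilla had few reads in these sorted epithelial cells. Fgf10, on the plus strand at chr13:118669791-118792115, had normalised counts of 22.2, 15.2 and 5.08 in the controls and 17.1, 10.03 and 8.77 in ILK-K5, with overlapping groups and a log2 fold change of -0.08 (SE 0.74). Fgf7 (chr2:126034658-126091185, plus strand) had 8, 2 and 4 reads in the controls and 5, 0 and 4 in ILK-K5. At this depth a difference in Fgf7 or Fgf10 of the size of the scatter between libraries was not detectable.

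Fgf2, on the plus strand at chr3:37348346-37410108, had 1, 1 and 0 reads in the controls and 34, 1 and 12 in ILK-K5, so the groups met at 1 read while 2 of the ILK-K5 libraries stood higher. Pooled over libraries this is 47 against 2 reads, a ratio of 22.6 with an exact 95% interval of 5.91 to 192 that covers counting error only and not the spread between libraries. Of the exon bases of Fgf2, 9.44% also belong to Nudt6 on the opposite strand, and without strand information their reads cannot be told apart. No read was counted on Fgf22 in any library.

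The receptors were read in every library. Fgfr2, the epithelial receptor for Fgf7 and Fgf10, lies on the minus strand with annotated ends at chr7:130162451-133123350. It had normalised counts of 2870.3, 3464 and 2982 in the controls and 2017, 1796 and 2686 in ILK-K5. The groups did not overlap, the control mean was 1.43 times that of ILK-K5, and the log2 fold change was -0.54 (SE 0.26). Exons shared with Ctbp2 on the same strand make up 3.04% of those of Fgfr2.

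Fgfr1 (chr8:25513654-25575718, plus strand) had the higher mean in ILK-K5, with 1750.2, 850.0 and 1049 in the controls against 1675, 1377 and 1582 in ILK-K5. Control 1 exceeded all ILK-K5 libraries, so the groups overlapped, and the log2 fold change was 0.41 (SE 0.31). Fgfr3 (chr5:33721674-33737068, plus strand), the receptor with the lowest FPKM, had 285, 546 and 477 in the controls and 431, 476 and 441 in ILK-K5. Its log2 fold change of 0.10 (SE 0.31) was smaller than its error, and 13.9% of its exon bases are shared with the opposite-strand gene G630022F23Rik.

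**Figure D2:**
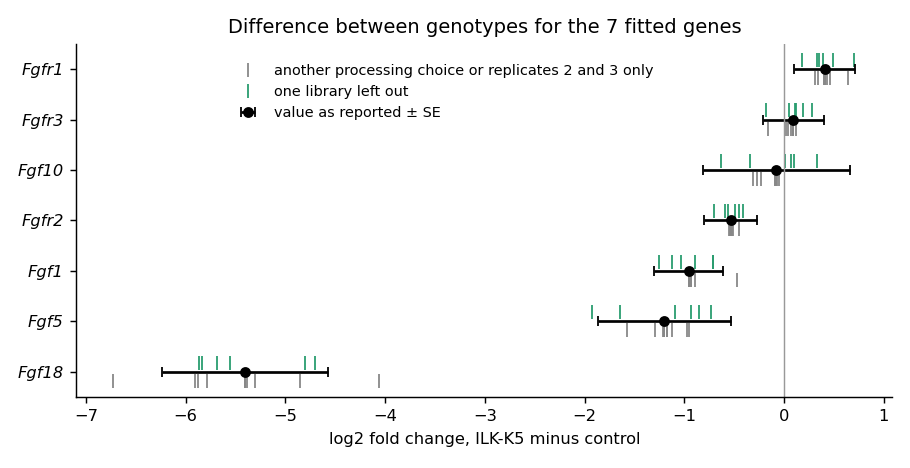
Log2 fold change (ILK-K5 minus control, x axis) of the 7 fitted genes, with the value as reported and its SE (black), the values with 1 library left out (green) and those with another processing choice or with replicates 2 and 3 only (grey). Fgf18 stays below -4 in each of them, Fgf1, Fgf5 and Fgfr2 stay below 0, Fgfr1 stays above 0, and Fgf10 and Fgfr3 cross 0.

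Levels of different genes were compared as FPKM, the deposited values per kilobase of transcript. In controls Fgfr2 (44.0 ± 4.47 FPKM, SD, n = 3) and Fgf1 (40.3 ± 12.5) stood highest, followed by Fgfr1 (15.4 ± 5.97), Fgf18 (11.9 ± 9.46), Fgfr3 (6.47 ± 2.01) and Fgf5 (5.80 ± 2.88). Fgf10, Fgf7 and Fgf2 had means of 0.316, 0.144 and 0.0472 FPKM. Neighbours in this order overlapped in their library ranges, except for the steps from Fgf1 to Fgfr1, from Fgf5 to Fgf10 and from Fgf7 to Fgf2.

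In ILK-K5 SCs the order began with the same 3 genes, Fgfr2 (30.7 ± 6.56 FPKM), Fgf1 (21.2 ± 8.45) and Fgfr1 (19.5 ± 1.92). Fgfr3 (6.67 ± 0.346) and Fgf5 (3.01 ± 2.86) came next. Fgf18, in position 4 of 10 in controls, was in position 8, at 0.195 ± 0.174 FPKM, below Fgf2 (0.971 ± 1.11) and Fgf10 (0.266 ± 0.0998). The ranges were apart only between Fgfr1 and Fgfr3 and between Fgfr3 and Fgf5.

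**Figure D3:**
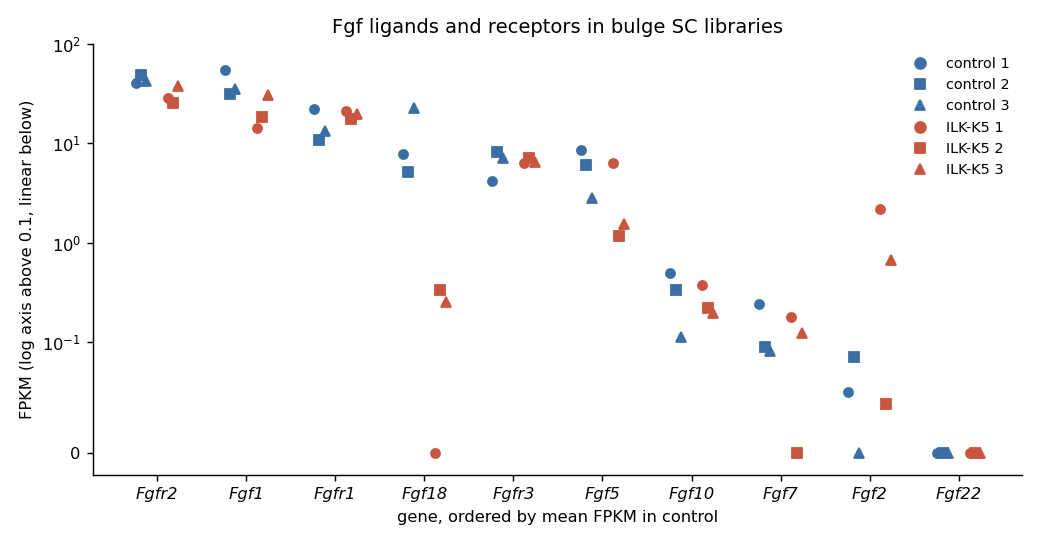
FPKM of the 10 genes in each library (points, log axis above 0.1 and linear below), ordered by their mean in controls (blue), with ILK-K5 in red. Fgf18 lies between 5.12 and 22.7 FPKM in controls and between 0 and 0.333 in ILK-K5, while the receptors keep their order of magnitude and Fgf22 is at 0 throughout.

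Summed over the 7 ligands, the level was 71.6, 42.9 and 60.8 FPKM in the controls and 23.5, 20.2 and 33.5 in ILK-K5. Fgf18 made up 10.9%, 11.95% and 37.3% of this sum in the controls and 0%, 1.65% and 0.754% in ILK-K5. The rest was mostly Fgf1, with 57.8% to 76.0% in controls and 61.4% to 91.6% in ILK-K5. The sum over the 3 receptors overlapped between the genotypes, with 67.0, 67.9 and 62.6 FPKM in controls and 56.1, 49.9 and 64.6 in ILK-K5. The ratio of Fgfr2 to Fgfr1 was 1.84, 4.57 and 3.19 in controls and 1.35, 1.46 and 1.90 in ILK-K5, so control 1 lay inside the ILK-K5 range.

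The 5 genes with the highest Pearson r with Fgf18 over the 6 libraries, on log2 normalised counts, were Aloxe3 (0.994), Gm29114 (0.991), Flg2 (0.990), Kcnc4 (0.990) and Igfbp3 (0.988). Aloxe3 is a lipoxygenase of the skin barrier, Flg2 a filaggrin-like protein of the cornified layer, and Igfbp3 a binding protein of insulin-like growth factors. Genes with the opposite pattern included Tm6sf1 (-0.999), Rassf9 (-0.997), Nedd9 (-0.994) and Apobec1 (-0.993). Of 16103 genes compared, 169 had an r of at least 0.9, and as the 6 points share the genotype contrast, these values describe likeness in these libraries only. Among the other members r was 0.80 for Fgf1, 0.75 for Fgfr2, 0.28 for Fgf5, -0.12 for Fgfr3, -0.21 for Fgf10 and -0.54 for Fgfr1.

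The remaining family members were scarce. Of 17 further Fgf ligands, intracellular Fgf homologous factors and receptors, 4 reached the fit, and none was called by limma, edgeR or DESeq2. Over all fitted genes, limma called 3.53%, edgeR 3.11% and DESeq2 6.44%. Of the 4, 0 had an unadjusted p under 0.05 in limma, where 12.3% of all fitted genes did. Fgf9, a ligand of the epithelium, had normalised counts of 9.65, 51.7 and 12.3 in controls and 9.11, 9.26 and 4.87 in ILK-K5, which did not overlap but came close, with a difference of -1.21 on the log2 scale (adjusted p = 0.680, limma). Fgfrl1, a receptor without a kinase domain, had 0.99 (adjusted p = 0.572, limma). The homologous factors Fgf11 and Fgf13, which stay inside the cell, had 0.43 and -0.67.

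Ligands reach the receptors with the help of heparan sulfate proteoglycans, the enzymes that sulfate them, co-receptors and carrier proteins. None of the 22 such genes that reached the fit, of 25 listed, was called by limma or edgeR. Over all fitted genes, limma called 3.53% in either direction, edgeR 3.11% and DESeq2 6.44%. An unadjusted p under 0.05 in limma was found for 4 of the 22 and for 12.3% of all fitted genes. Of these 22, 16 had a positive and 6 a negative log2 fold change, with a median of 0.33 where the median of all fitted genes was 0.01. The smallest p belonged to Hs6st2, a 6-O-sulfotransferase of heparan sulfate, with 1.93, 6.08 and 5.08 normalised counts in controls and 50.1, 40.9 and 16.6 in ILK-K5. Its log2 fold change was 2.74 (SE 0.73, adjusted p = 0.0881, limma), and it was the 1 gene of the list called by DESeq2. The paralogous membrane proteins Flrt3 and Flrt2, which bind Fgf receptors, differed in opposite directions, with 0.77 (adjusted p = 0.238) and -0.82 (adjusted p = 0.255) in limma.

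Of 14 kinases and adaptors of the cascade, 13 reached the fit, none was called by limma, edgeR or DESeq2, and 1 had an unadjusted p under 0.05. Over all fitted genes, limma called 3.53%, edgeR 3.11% and DESeq2 6.44%, and 12.3% had an unadjusted p under 0.05 in limma. The 1 gene of this list was Map2k1, the ERK-activating kinase Mek1. It had normalised counts of 207, 175 and 223 in controls and 379, 396 and 324 in ILK-K5. Its log2 fold change was 0.86 (SE 0.27, adjusted p = 0.163, limma), and its groups did not overlap. The adaptors Shc1 and Grb2 came next with 0.60 and 0.49. Over the 13 genes the median was 0.29, with 10 positive values and 3 negative ones, where 8265 of all 16368 fitted genes had a positive value.

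Of 15 targets and feedback inhibitors of ERK signalling, 2 were called higher in the ILK-K5 libraries, the ETS factors Etv5 and Etv1. These libraries were also higher in macrophage markers, as given below. All 15 reached the fit, and none was called lower. Of all fitted genes, 2.93% were called higher and 0.599% lower. The ILK-K5 libraries lay wholly above the controls for 7 of the 15 (10.9% of all fitted genes) and wholly below for 0 (6.95% of all fitted genes). The log2 fold change was positive for 12 of 15, and its median was 0.55, the value of Egr1, which does not depend on the 1 gene at the detection floor in controls.

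Etv5, an ETS factor induced by Fgf signals, lies on the minus strand at chr16:22381309-22439719. It had normalised counts of 88.8, 141 and 205 in controls and 529, 781 and 837 in ILK-K5, with no overlap. The mean was 4.94-fold higher, with a log2 fold change of 2.35 (SE 0.36, adjusted p = 0.00749, limma). It was called in all 17 alternatives, with adjusted p from 1.18e-06 to 0.0481. Its paralog Etv1 had 0, 0 and 2 reads in controls and 29, 24 and 14 in ILK-K5, a pooled ratio of 32.1 with an exact 95% interval of 8.56 to 271 for counting error. It passed limma's threshold (adjusted p = 0.0464) and that of 7 of the 13 alternatives that tested it (adjusted p from 0.00535 to 0.214). The call was lost without control 1, control 2 or ILK-K5 library 3, and the gene did not reach the fit when ILK-K5 library 1 or 2 was left out.

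Dusp6, the phosphatase that inactivates ERK, had normalised counts of 336, 120.1 and 121 in controls and 1354, 599 and 461 in ILK-K5. Its groups did not overlap, and its log2 fold change of 2.08 (SE 0.51) narrowly missed the threshold (adjusted p = 0.0638, limma, 0.000413 to 0.272 over 17 alternatives, of which 5 called it). The lowest of these was that of the limma fit with the replicate number as a block. Spry4, a Sprouty inhibitor of Ras signalling, had 12.5, 1.52 and 14.5 in controls and 43.3, 40.1 and 58.4 in ILK-K5 (log2 fold change 2.56, adjusted p = 0.144, limma). Etv4, the third factor of the Etv5 subfamily, differed by 1.94 on the log2 scale (adjusted p = 0.313, limma) without overlap of the groups. Spry1 and Spry2 likewise did not overlap, at 0.65 and 0.47. The values below 0 were those of Spred3, Fosl1 and Dusp4, from -0.73 to -0.10, each smaller than or close to its error.

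**Figure D4:**
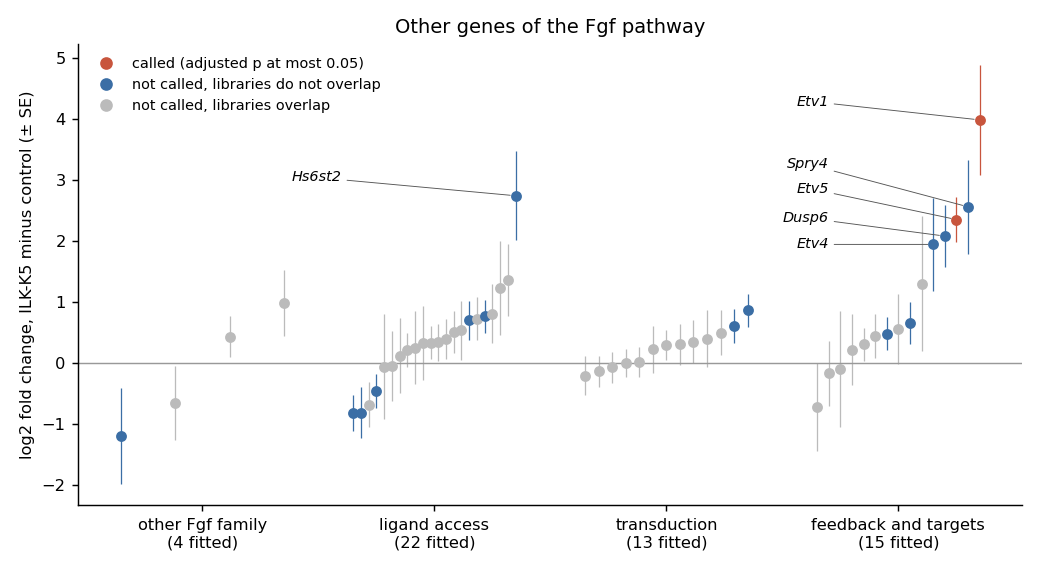
Log2 fold change with SE (y axis, ILK-K5 minus control) of the fitted genes in 4 lists of the Fgf pathway, each ordered from lowest to highest, with called genes in red and uncalled genes without overlap of the libraries in blue. Etv1 and Etv5 are the called genes, both among feedback genes and targets, where 12 of 15 points lie above 0.

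Markers of macrophages differed as a set between the same libraries, while of the mesenchymal markers 1 fibroblast and 1 dermal papilla marker were called by limma. For comparison, limma called 2.93% of all fitted genes higher and 0.599% lower, and DESeq2 called 6.44% in either direction. An unadjusted p under 0.05 in limma was found for 12.3%. The summed FPKM of 9 macrophage markers was 4.44 to 6.07 in controls and 436 to 766 in ILK-K5, and 9 of 9 were called higher, with Lyz2 and C1qb the most abundant. The part of these cells in the higher counts of Etv5, Etv1, Dusp6, Spry4 and Etv4 was not tested. Of 6 fibroblast markers, 1 of 4 fitted was called higher (Col3a1, log2 fold change 4.13), the sum being 10.1 to 14.6 in controls, with Lum at 0 in each, and 22.6 to 30.7 in ILK-K5. Col1a1 and Col1a2 were not called but had every ILK-K5 library above every control (10.9% of all fitted genes). The groups of Dcn and Pdgfra overlapped. Of 7 dermal papilla markers, 1 of 3 fitted was called higher by limma (Vcan, 3.33), with sums of 4.85 to 9.62 and 7.23 to 20.4 and with Sox2 at 0 in all libraries. In ILK-K5 libraries 2 and 3 most of the sum was Crabp1, at 18.9 and 17.9 FPKM. The groups of Crabp1 overlapped, and it was not called (adjusted p = 0.455, limma). Hhip went the other way from Vcan in value (-2.40, adjusted p = 0.160, limma), with every ILK-K5 library below every control. DESeq2 called 1 of the papilla markers higher and 1 lower. Rspo3, not fitted, had 8, 2 and 38 reads in controls and 0, 0 and 1 in ILK-K5. Alpl and Corin, also not fitted, overlapped. Alpl had 24, 0 and 2 reads in controls and 0, 3 and 0 in ILK-K5, and Corin 5, 0 and 3 against 3, 1 and 1. T cell markers (0 of 5 called by limma, 1 by DESeq2 and 3 with an unadjusted p under 0.05) summed to 11.9 to 12.5 and 17.3 to 24.1. These T cell sums, controls first, did not overlap. For endothelial markers (0 of 2 fitted called by limma, 1 by DESeq2 and 1 with an unadjusted p under 0.05) and melanocyte markers (0 of 3 by either, and 0) the ranges overlapped, at 1.13 to 3.07 against 1.34 to 1.57 and 3.64 to 7.65 against 3.17 to 7.95.

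Markers of the sorted cells themselves were present in all libraries. The calls below stand beside 2.93% of all fitted genes called higher by limma and 0.599% called lower. The 13 bulge SC markers summed to 3448 to 9444 FPKM in controls and 2428 to 4639 in ILK-K5, mostly from Krt15 and Krt5. Of the 13, 1 was called, Cd34, the antigen of the sort. Cd34 had normalised counts of 2009, 947 and 1960 in controls and 296, 560 and 433 in ILK-K5, a log2 fold change of -1.90 (SE 0.37, adjusted p = 0.0239, limma, 9.75e-05 to 0.128 over 17 alternatives). The call held without control 2 or ILK-K5 library 2 but was lost without any of the other 4 libraries. Of 4 markers of the inner bulge layer, the keratin-6 cells beside the stem cells, Krt6a and Krt6b were called higher (log2 fold changes 1.49 and 1.40, adjusted p = 0.0356 and 0.0238, limma). Krt75 had a value of -0.75 and Bmp6 of 1.26, neither called, and for both the groups overlapped. The 4 genes together summed to 68.6 to 133 FPKM in controls and 220 to 279 in ILK-K5, mostly from Krt6a. Neither Krt6a nor Krt6b was called without control 2 or without any 1 of the ILK-K5 libraries. Differentiated keratinocyte markers, of which 1 of 5 fitted was called lower (Lor, log2 fold change -3.91, not called without control 2 or ILK-K5 library 3), overlapped in their sums, at 73.6 to 512 and 104 to 185. Control 3, the library highest in Fgf18, was also the highest in both the bulge SC and the differentiated sums. The part of these cell types in the difference of Fgf18 was not tested.

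**Figure D5:**
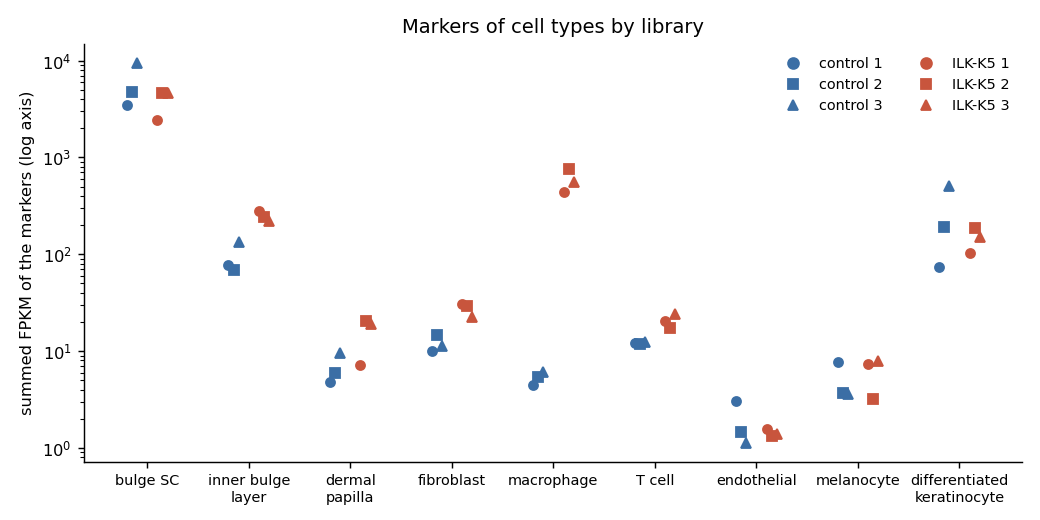
Summed FPKM (log axis) of the markers of 9 cell types in each library, with controls in blue and ILK-K5 in red. Macrophage sums stand at 4.44 to 6.07 in controls and 436 to 766 in ILK-K5. Inner bulge sums, which are mostly Krt6a, are also apart, as are the fibroblast and T cell sums. Sums of the other lists overlap, among them those of bulge SCs, mostly Krt15 and Krt5.

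The libraries held 8228019 to 11969072 reads on genes, and 1 read amounted to 0.726 to 1.52 normalised counts. The 100 most abundant genes took 37.4% to 54.3% of the reads. The targeted gene, Ilk, could not serve as a check on the genotype, since 76.7% of its exon bases are shared with Taf10 and 12.9% with Rrp8, both on the other strand, and its normalised counts were 10.6 to 38.5 in controls and 14.8 to 30.9 in ILK-K5.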

How the data were processed

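Bulge SCs for 3 control and 3 ILK-K5 libraries were sorted into TRIzol LS, and amplified cDNA was sequenced as read pairs. According to the methods and the submitters' processing notes, the authors removed adapters and ribosomal reads, aligned to GRCm38 (TopHat2 2.0.14 and Bowtie2 2.2.4 are named) and used DESeq2 1.6.3. The counting program and its use of strand are not given in the sources used here. The signal values deposited by the authors are normalised counts, and 100% of them were whole multiples (tolerance 0.01) of 1 value per library, so reads were recovered. The FPKM values deposited by the authors equal these times a constant per gene. Deposited tables of the authors' own comparison (fold changes, errors and p-values) were not used.

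Log2(normalised count + 1) was fitted in limma 3.58.1 (R 4.3.3, lmFit and eBayes with trend, two-sided) for 16368 genes with a mean of at least 10, and genes with a Benjamini-Hochberg adjusted p of at most 0.05 were called. The code was tested on simulated data. Alternatives were pseudocounts of 0.1 and 5, no filter or a mean of at least 50, TMM, quantile normalisation, FPKM, edgeR 4.0.16 and DESeq2 1.42.0 on recovered reads, a replicate block, each library left out, and replicates 2 and 3 only. On recovered reads edgeR called 509 genes and DESeq2 1052. Tables and plots were made in Python 3.11.15 with pandas 2.3.3 and matplotlib 3.10.9. Coordinates and exons came from GENCODE M21, which gave 97.3% of rows a symbol.

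The genes, lists and tests were chosen with earlier results of these data known. Named genes are the 10 members, other family genes that reached the fit, called genes of each pathway list (with the 3 smallest p where fewer were called), the 5 genes most like and most unlike Fgf18, overlapping genes, called markers (or the 2 most abundant) and Ilk. 1 gene that meets this rule is not reported here. Etv4, Spry1, Spry2, Spred3, Fosl1, Dusp4, Egr1, uncalled or zero markers and the family genes under the filter were added after their values were seen. Of 140 list entries, 1 has no row in the table.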

Additional observations from a re-analysis of the deposited data

How the results depend on the processing

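Fgf18 was selected on this contrast, so its values over the 17 alternatives describe only how the size of its log2 fold change depends on the processing and are no sign of stability. The value moved by more than the spread between replicates with pseudocounts of 0.1 (-6.73) and 5 (-4.07), and lay between -5.86 and -4.70 with 1 library left out. Fgf1, Fgf5, Fgfr1 and Fgfr2 kept their sign in 17 of 17, Fgf10 in 11 of 15 and Fgfr3 in 15 of 17. Over all genes, DESeq2 called 772 higher and 280 lower where limma called 479 and 98. Leaving out 1 library gave 217 to 554 higher and 32 to 93 lower, the fewest without ILK-K5 library 2, and also fewer without ILK-K5 library 1 (255 and 39), ILK-K5 library 3 (242 and 40) and control 2 (312 and 36). Of the 15 feedback genes and targets, 2 were called, but 1 under quantile normalisation, a pseudocount of 0.1, a mean of at least 50 or FPKM, 3 without a filter and 4 under DESeq2. The count was 1 to 2 with 1 library left out, being 1 without control 2 or any 1 ILK-K5 library, and Etv5 was among the genes called in each. DESeq2 called 1 of the access genes (Hs6st2) where limma called 0. The cause of these moves was not tested. With the replicate number as a block, 848 genes were called higher and 269 lower, and 4 feedback genes (Spry4, Dusp6, Etv1 and Etv5) were called. The deposited column names carry the same identifier for control and ILK-K5 libraries of equal number, and the paper states that controls were littermates. Deviations from the group means correlated at 0.53, 0.02 and 0.31 within numbers, and control 3 correlated best with ILK-K5 library 2 (0.50). With 3 libraries per group these correlations cannot decide whether the libraries are paired. The main fit leaves a pairing out, and the block fit is the one that would apply if it holds. Depth limits Fgf2, Fgf7 and Fgf22, which had at most 34 reads in a library, and intervals from reads cover counting error only.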

Other observations

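The 13 family genes that did not reach the fit were at or near 0. Fgf16, Fgf17 and Fgf20 had no read in any library. Fgf3, a ligand next to Fgf4 on chromosome 7, had 0 reads in all controls and 0, 3 and 6 in ILK-K5. Fgf23, a hormone of phosphate balance, had 4, 7 and 1 reads in controls and 0, 0 and 5 in ILK-K5. Fgfr4, the remaining kinase receptor, had 5, 0 and 1 reads in controls and 0, 0 and 1 in ILK-K5. The co-receptors Kl and Klb, which hormone-like Fgf ligands require, had at most 10.6 normalised counts in a library. Kl had 5, 1 and 4 reads in the controls and 1, 1 and 0 in ILK-K5, so the groups met at 1 read.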
